A study of Mus musculus with 6 samples.

Results

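Small noncoding RNAs that build or guide the RNA machinery of the cell were followed in mouse blastocysts, the hollow embryos that implant in the uterus, during embryonic dormancy and outside it. The set held every probeset whose only gene symbol was that of a small nucleolar RNA (Snord or Snora), a Cajal body RNA (Scarna), a small nuclear RNA (Rnu), the 5S ribosomal RNA (n-R5s), 7SK (Rn7s), a Y RNA (Rny), an RNase P RNA (Rpph1, Rprl), the RNase MRP RNA (Rmrp) or telomerase RNA (Terc). That rule used names and no measured value, and it gave 94 of the 41345 probesets of a Mouse Gene ST array, with 90 symbols. By class, 48 were box C/D RNAs (U3, Rnu3a, included), 28 box H/ACA RNAs, 6 Cajal body RNAs, 3 small nuclear RNAs, 7 RNA polymerase III RNAs other than 5S, 1 a 5S RNA and 1 telomerase RNA.

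All 6 arrays were made from blastocysts of let7g-transgenic mice, and the RNA for each came from 10 embryos, so every group carried the transgene and no wild-type embryos were compared here. D4-act-7g embryos (2 arrays) were activated blastocysts of day 4. Dor-7g embryos (2 arrays) were dormant in vivo and collected on day 7, and DOX-7g embryos (2 arrays) had been made dormant in vitro with DOX and were also of day 7. Dormancy therefore came with a different day, and for DOX-7g also with culture and DOX, and these cannot be told apart in these groups. Nothing in the labels ties the 2 arrays of a group to different mice or pools. The p-values thus measure the spread between these arrays, which may be technical. The promoter of the transgene is also not stated.

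As background, box C/D RNAs pair with ribosomal or small nuclear RNA and direct methylation of the sugar, while box H/ACA RNAs direct the change of uridine to pseudouridine; a few of each, such as U3, act in cutting the ribosomal precursor instead. Cajal body RNAs guide the same modifications on the spliceosome's RNAs. In mammals most of these guides are cut out of introns of host genes, many of which encode ribosomal proteins, whereas U3, U8, U13, 7SK, RNase P RNA, the Y RNAs and 5S are transcribed from promoters of their own, several of them by RNA polymerase III. Blastocysts in diapause are known for slow growth and low protein synthesis, and ribosome assembly is where most of these RNAs act.

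Values are log2 expression as deposited, and a change is the difference between group means in log2 units, given with its standard error (SE) from limma, fitted to all 41345 probesets at once; adjusted p-values are Benjamini-Hochberg values over that whole table with a threshold of 0.05. The arrays' medians lay between 4.62 and 4.87, highest on Dor-7g replicate 1, whose correlations with the other arrays (0.899 to 0.919) were the lowest of the series. The median change over all probesets was 0.12 in Dor-7g versus D4-act-7g, 0.03 after a second quantile normalization and 0.00 without that array. Of the lineage markers, 5 of 7 for trophectoderm, 3 of 4 for inner cell mass and 3 of 4 for primitive endoderm reached the array's median every time. The 6 measured blood and immune markers averaged 4.27 and 4.43 on the D4-act-7g arrays, 4.72 and 5.19 on those of Dor-7g, and 7.41 and 7.06 on those of DOX-7g, with Ly6g and S100a9 past the threshold in DOX-7g versus D4-act-7g and versus Dor-7g. Their changes in DOX-7g versus D4-act-7g were 7.30 for S100a8, 5.00 for S100a9, 3.54 for Ly6g, 0.80 for Lyz2, 0.56 for Cd52 and 0.15 for Ptprc, which lay below the array's median on all 6 arrays. Their part in the DOX-7g results below was not tested, and in whole embryos fewer cells of a type and less RNA per cell cannot be told apart.

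In Dor-7g, 6 of the 94 members rose and 1 fell against D4-act-7g, 7.45% of members where 0.346% of all probesets passed (0.121% higher and 0.225% lower). Those that rose were U3 (Rnu3a), both probesets of 7SK (Rn7sk), 5S ribosomal RNA (n-R5s136), the Cajal body RNA Scarna17 and the box H/ACA RNA Snora31, and the 1 that fell was the box C/D RNA Snord42b. In DOX-7g, 5 of the 94 rose against D4-act-7g and none fell, 5.32% of members where 0.489% of all probesets passed (0.399% higher and 0.0895% lower). These were again U3, both 7SK probesets, 5S and the same Scarna17 probeset. At an unadjusted p under 0.05, 14 members (14.9%) were higher and 7 (7.45%) lower in Dor-7g, where 5.56% and 4.84% of all probesets were. In DOX-7g 20 (21.3%) were higher and 5 (5.32%) lower, where 3.56% and 3.8% of all probesets were, so the shares of lower members lay nearer to those of the whole table than the shares of higher ones. Both comparisons share the D4-act-7g arrays, so a low value there enters both.

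The median change of the members as a whole was close to that of the array: -0.01 for members and 0.12 for all probesets in Dor-7g, and 0.18 and -0.01 in DOX-7g. Their spread was wider: the quartiles of the members lay at -0.41 and 0.66 in Dor-7g, where those of all probesets lay at -0.09 and 0.31, and at -0.36 and 1.43 in DOX-7g, where those of all probesets lay at -0.19 and 0.15. Member changes ran from -5.33 to 6.78 in Dor-7g and from -4.15 to 6.99 in DOX-7g. By a looser count with no p-value, a change of at least 1 log2 unit with no overlap between the arrays of both groups, 19 members (20.2%) were higher and 11 (11.7%) lower in Dor-7g, against 2.3% and 3.62% of all probesets. In DOX-7g 24 (25.5%) were higher and 11 lower, against 2.59% and 2.16%.

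**Figure D1:**
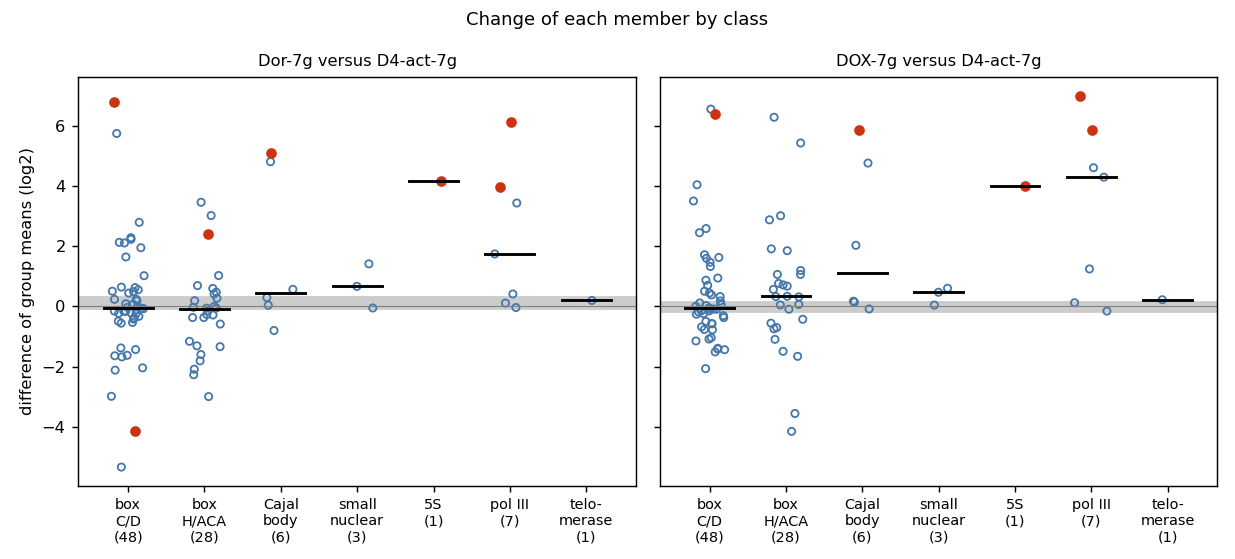
Difference of group means (log2) for each of the 94 members by class, Dor-7g versus D4-act-7g on the left and DOX-7g versus D4-act-7g on the right. Points are probesets, filled where limma's adjusted p is below 0.05, horizontal bars are class medians and the grey band covers the range between the quartiles of all 41345 probesets. The polymerase III class has medians of 1.74 and 4.29, while the box C/D medians are both -0.07.

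With no filter, the 7 polymerase III probesets, both of 7SK among them, had the highest class median among the classes of more than 1 member. It was 1.74 for Dor-7g and 4.29 for DOX-7g, each the difference of the Y RNA Rny3, which did not pass. All 7 pass the filter of 2 of 6 arrays at or above the median. Under it 3 of the 6 Cajal body probesets remain, both of Scarna17 and Scarna8. Their medians of 4.80 and 4.75 are values of 1 Scarna17 probeset. Both Scarna17 probesets were below the median on both D4-act-7g arrays and pass only through dormant arrays, as do Rny1, Rny3 and Rpph1. Filtered medians therefore rank no class here. The 1.74 was 0.83 and 0.80 when either Dor-7g array was left out, and the 4.29 became 2.83 without DOX-7g replicate 2. 7SK is the abundant nuclear RNA that holds the elongation factor P-TEFb in an inactive complex. One of its probesets (17314435) read 6.37 and 6.10 on the D4-act-7g arrays, 10.29 and 10.08 on the Dor-7g arrays, and 11.76 and 12.41 on the DOX-7g arrays. All 4 dormant arrays were above both D4-act-7g arrays, and DOX-7g was above Dor-7g without overlap. The change was 3.95 (SE 0.27, adjusted p = 0.0219, limma) in Dor-7g, a fold of 15.4, and 5.85 (SE 0.27, adjusted p = 0.00153) in DOX-7g, a fold of 57.7. The difference between the dormant groups, 1.90, did not pass (adjusted p = 0.0793).

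The second 7SK probeset (17529001) read 6.53 and 5.82 for D4-act-7g, 12.92 and 11.68 for Dor-7g, and 12.85 and 13.48 for DOX-7g. It rose by 6.13 (SE 0.50, adjusted p = 0.0268, limma) in Dor-7g and by 6.99 (SE 0.50, adjusted p = 0.0098) in DOX-7g, so both probesets went the same way, with a larger change on the second. The 2 probesets carry 1 gene name and are not independent evidence.

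Among the other polymerase III RNAs, Rpph1, the RNA subunit that does the cutting in RNase P and so trims the 5′ ends of transfer RNAs, was high in DOX-7g and not in Dor-7g. It read 3.86 and 3.15 on the D4-act-7g arrays, 2.60 and 4.33 on those of Dor-7g, and 8.33 and 7.88 on those of DOX-7g, with the DOX-7g arrays clear of the other 4. The difference of 4.60 (SE 0.61) between DOX-7g and D4-act-7g did not pass (adjusted p = 0.0694, limma), nor did that of 4.64 between DOX-7g and Dor-7g (adjusted p = 0.0643). In a fit of the D4-act-7g and DOX-7g arrays alone the first had an adjusted p of 0.0233 (limma). In that fit 0.648% of all probesets passed, where 0.489% did in the fit of all 6 arrays. Without Dor-7g replicate 2 the second difference was 5.51, from 1 Dor-7g array.

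The related RNase P genes Rprl1 and Rprl2 lay close together on all arrays, Rprl1 between 6.14 and 6.69 and Rprl2 between 6.80 and 7.75, with changes against D4-act-7g of -0.16 to 0.41 that did not pass. The Y RNAs, which bind the Ro60 protein, were uneven between arrays of a group. Rny3 read 3.22 and 3.77 for D4-act-7g, 4.22 and 6.25 for Dor-7g, and 6.32 and 9.24 for DOX-7g, higher on all 4 dormant arrays but with differences (1.74 and 4.29) whose adjusted p-values were 0.616 and 0.368. Rny1 was high on Dor-7g replicate 1 alone, at 9.05 against 2.44 to 4.75 on the other 5 arrays.

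5S ribosomal RNA, the small RNA of the large ribosomal subunit, read 8.11 and 7.77 on the D4-act-7g arrays, 12.68 and 11.52 on those of Dor-7g, and 12.14 and 11.72 on those of DOX-7g on its single member probeset (n-R5s136). The D4-act-7g arrays were the lowest and the dormant groups overlapped each other. It rose by 4.16 (SE 0.42, adjusted p = 0.0389, limma) in Dor-7g and by 3.99 (SE 0.42, adjusted p = 0.0352) in DOX-7g, folds of 17.9 and 15.9.

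Of the 48 box C/D RNAs, U3 and U13, known for their part in making the small ribosomal subunit rather than for guiding methylation, had the largest positive differences in both comparisons with D4-act-7g. U3, which is needed to release the small-subunit RNA, read 2.50 and 2.92 for D4-act-7g, 10.14 and 8.84 for Dor-7g, and 8.31 and 9.86 for DOX-7g on the probeset of Rnu3a. It was below the array's median on both D4-act-7g arrays and well above it on the other 4. The change was 6.78 (SE 0.65, adjusted p = 0.0325, limma) in Dor-7g and 6.37 (SE 0.65, adjusted p = 0.0314) in DOX-7g.

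U13 (Snord13), which pairs with the small-subunit RNA, read 4.09 and 7.21 on the D4-act-7g arrays, 12.09 and 10.68 on those of Dor-7g, and 11.97 and 12.42 on those of DOX-7g. All 4 dormant arrays lay above both D4-act-7g arrays, while the dormant groups overlapped each other. The D4-act-7g arrays differed by 3.12 from each other, and neither the difference of 5.74 (SE 1.06, adjusted p = 0.164, limma) nor that of 6.55 (adjusted p = 0.126) passed. U8 (Snord118), needed to mature the large-subunit RNAs, read 6.39 and 5.75 for D4-act-7g, 8.87 and 6.54 for Dor-7g, and 9.68 and 10.53 for DOX-7g. Its differences of 1.64 and 4.04 did not pass either (adjusted p = 0.542 and 0.211), and U8 in DOX-7g had an adjusted p of 0.0498 in the fit of those 4 arrays alone.

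The methylation guides went both ways. Snord42b, inside the ribosomal protein gene Rpl23a, read 6.62 and 7.61 on the D4-act-7g arrays, 2.90 and 3.09 on those of Dor-7g, and 7.86 and 7.38 on those of DOX-7g. Both Dor-7g arrays stood below the other 4, which overlapped. It fell by 4.12 on the log2 scale (SE 0.37, adjusted p = 0.0277, limma) in Dor-7g versus D4-act-7g and was 4.62 higher (SE 0.37, adjusted p = 0.0133) in DOX-7g than in Dor-7g, while DOX-7g and D4-act-7g differed by 0.50 (adjusted p = 0.938).

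Snord16a, inside Rpl4, had a like order: 6.09 and 5.17 for D4-act-7g, 3.53 and 3.49 for Dor-7g, and 7.94 and 8.48 for DOX-7g. No groups overlapped. DOX-7g was higher than Dor-7g by 4.70 (SE 0.36, adjusted p = 0.011, limma), a fold of 26.0, while neither Dor-7g (-2.12, adjusted p = 0.142) nor DOX-7g (2.58, adjusted p = 0.0779) passed against D4-act-7g.

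Snord49b had the lowest change of all members in Dor-7g. It read 9.37 and 9.51 on the D4-act-7g arrays, 4.27 and 3.94 on those of Dor-7g, and 6.82 and 9.98 on those of DOX-7g, so Dor-7g lay below both other groups and the DOX-7g arrays stood 3.16 apart. The difference of -5.33 (SE 0.98) did not pass (adjusted p = 0.161, limma); in the fit without the DOX-7g arrays its adjusted p was 0.0372. Of all 48 box C/D RNAs, 9 were at least 1 unit higher with no overlap and 5 lower in Dor-7g, and 9 higher and 6 lower in DOX-7g. These are 18.8% and 10.4%, and 18.8% and 12.5%, beside 2.3% and 3.62%, and 2.59% and 2.16%, of all probesets. The class medians were both -0.07.

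Among the 28 box H/ACA RNAs, Snora31, inside the gene Tpt1, read 9.42 and 9.56 for D4-act-7g, 12.15 and 11.61 for Dor-7g, and 9.84 and 10.26 for DOX-7g. The Dor-7g arrays were the highest. It rose by 2.39 (SE 0.26, adjusted p = 0.0496, limma) in Dor-7g and differed by 0.56 (adjusted p = 0.771) in DOX-7g.

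Snora73b is a copy of U17, an H/ACA RNA needed to cut the ribosomal precursor, and read 8.17 and 8.29 on the D4-act-7g arrays, 7.92 and 7.37 on those of Dor-7g, and 10.03 and 10.12 on those of DOX-7g. It was higher in DOX-7g than in Dor-7g by 2.43 (SE 0.23, adjusted p = 0.0224, limma) and than in D4-act-7g by 1.85 (adjusted p = 0.0587). The other copy in the same host gene, Snora73a, had the same order with smaller differences (1.34 and 1.19, adjusted p = 0.338 and 0.436). Both are copies of 1 RNA, and whether their probes tell them apart was not tested.

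Snora20 and Snora30, both pseudouridine guides, were either near the lowest values or high, array by array. Snora20, inside Tcp1, read 3.13 and 2.95 for D4-act-7g, 3.37 and 8.74 for Dor-7g, and 9.46 and 9.17 for DOX-7g. Snora30 read 3.67 and 2.98, 10.22 and 3.35, and 8.25 and 9.25 in the same order. Both were low on both D4-act-7g arrays, high on both DOX-7g arrays and split in Dor-7g, with the opposite Dor-7g array high in each. Neither difference between DOX-7g and D4-act-7g (6.28 and 5.42) passed in the fit of all 6 arrays (adjusted p = 0.379 and 0.672, limma), whereas both did in the fit of those 4 arrays (0.0022 and 0.0341). As a class, box H/ACA RNAs had medians of -0.10 in Dor-7g and 0.33 in DOX-7g.

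Scarna17, a Cajal body guide RNA, had 2 probesets. The first (17357717) read 4.24 and 3.57 on the D4-act-7g arrays, 9.04 and 8.94 on those of Dor-7g, and 9.67 and 9.82 on those of DOX-7g, with no overlap between any groups. It rose by 5.08 (SE 0.26, adjusted p = 0.0112, limma) in Dor-7g and by 5.84 (SE 0.26, adjusted p = 0.0014) in DOX-7g, folds of 33.9 and 57.3. The other (17355435) read 4.32 and 2.94, 9.23 and 7.63, and 8.55 and 8.22 in the same order, and its differences of 4.80 and 4.75 had adjusted p-values of 0.0913 and 0.0819. The remaining 4 Cajal body RNAs had differences from -0.80 to 0.56 in Dor-7g and from -0.09 to 2.03 in DOX-7g, none of which passed.

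**Figure D2:**
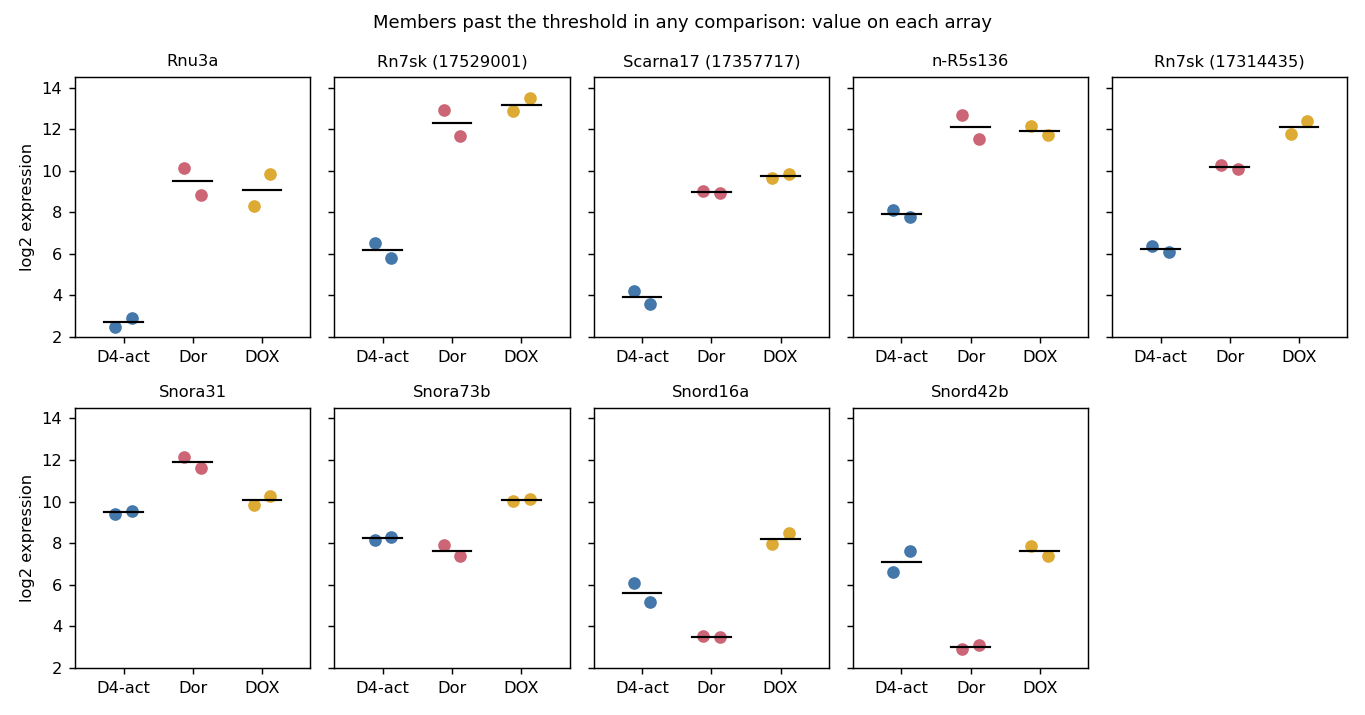
Log2 expression (vertical axis) on each array for the 9 member probesets past the threshold in any comparison, by group; points are arrays (replicate 1 left, replicate 2 right) and horizontal bars are means of 2 arrays. In U3 (Rnu3a), both 7SK probesets, Scarna17 and 5S both dormant groups lie above D4-act-7g, whereas Snord42b and Snord16a are lowest in Dor-7g.

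None of the 3 small nuclear RNA members passed. U11 (Rnu11), which reads the 5′ splice site of the minor class of introns, lay between 8.88 and 9.72 on all 6 arrays. Its Dor-7g arrays (9.72 and 9.47) were above those of both other groups, by 0.67 against D4-act-7g (adjusted p = 0.303, limma). U12 (Rnu12), its partner at the branch point, read 9.85 and 10.05 for D4-act-7g, 11.62 and 11.10 for Dor-7g, and 10.68 and 10.43 for DOX-7g; the groups did not overlap, but differences of 1.41 and 0.60 did not pass (adjusted p = 0.139 and 0.67, limma). Rnu5g, a U5 gene, lay below the array's median on all 6 arrays, as did telomerase RNA (Terc, 3.83 to 4.66), whose differences were 0.20 and 0.22 (adjusted p = 0.842 and 1).

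Most copies of U1, the RNA that marks 5′ splice sites, and of U3 share probesets with several gene symbols and therefore fell outside the rule. The 9 probesets of U1 copies held identical values and count as 1 measurement, 9.09 and 8.19 on the D4-act-7g arrays, 12.90 and 12.78 on those of Dor-7g, and 11.86 and 11.17 on those of DOX-7g. They rose by 4.20 (SE 0.38, adjusted p = 0.0277, limma) in Dor-7g and differed by 2.87 (adjusted p = 0.069) in DOX-7g. The 4 probesets of the other U3 copies, also identical, read 10.25 and 10.27, 12.87 and 12.50, and 13.21 and 13.53. They rose by 2.42 (SE 0.21, adjusted p = 0.0273) and 3.11 (SE 0.21, adjusted p = 0.0076), the same direction as Rnu3a with a smaller change.

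The calls rested on few arrays to different degrees. In DOX-7g versus D4-act-7g, the 7SK probeset 17314435 and the Scarna17 probeset 17357717 passed whichever single array was left out, with changes of 5.53 to 6.17 and 5.51 to 6.17. The others in that comparison were lost without either D4-act-7g array, 5S and the second 7SK probeset also without either DOX-7g array, and U3 without DOX-7g replicate 2, with adjusted p-values of up to 0.241. In Dor-7g versus D4-act-7g, all 7 calls were lost without either D4-act-7g array, as were the calls of the whole table. All 7 held without Dor-7g replicate 2, where more of all probesets passed than in the fit of all 6 arrays. Each of these fits leaves 1 array in a group. U3, Snord42b and Snora31 passed in that 1 fit of the 6 and in none of the other 5, and 5S and the second 7SK probeset were also lost without either DOX-7g array, with adjusted p-values of up to 0.285. Leaving out arrays did not turn any of these 12 changes: that of Rnu3a in Dor-7g stayed between 6.13 and 7.43, that of n-R5s136 between 3.58 and 4.74, that of Snord42b between -4.61 and -3.63 and that of Snora31 between 2.12 and 2.66.

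In the direct comparison of the dormant groups, 3 of the 94 members were higher in DOX-7g than in Dor-7g and none lower, 3.19% of members where 0.59% of all probesets passed (0.554% higher and 0.0363% lower). These were Snord16a, Snord42b and Snora73b, with differences of 4.70, 4.62 and 2.43, each measured inside a host gene. At an unadjusted p under 0.05, 12 (12.8%) were higher and 9 (9.57%) lower, where 3.94% and 5.52% of all probesets were. By the looser count, 17 members (18.1%) were at least 1 unit higher in DOX-7g without overlap and 5 (5.32%) lower. Over all probesets these shares were 3.01% and 1.94%. The 17 were 7 of the 28 box H/ACA (25%), 6 of the 48 box C/D (12.5%), 3 of the 7 polymerase III (42.9%) and 1 of the 6 Cajal body probesets (16.7%). Each of the 3 calls was lost without either DOX-7g array, those of Snord16a and Snord42b also without Dor-7g replicate 1 and that of Snora73b without either D4-act-7g array, with adjusted p-values of up to 0.128. The differences over the 6 fits that each left out 1 array stayed between 4.43 and 4.97 for Snord16a, 4.38 and 4.86 for Snord42b, and 2.16 and 2.71 for Snora73b.

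Position in the genome, which the rule did not use, was taken from RefSeq's mouse gene table (GRCm38.p6). The position groups were set after the values were seen. By it, 16 members lay in no other gene, 74 inside a named gene and 4 inside only a predicted gene. Of the 16 outside other genes, 9 (56.2%) were at least 1 unit higher without overlap in each comparison with D4-act-7g and 0 were lower. Over all probesets 2.3% were higher and 3.62% lower in Dor-7g, and 2.59% and 2.16% in DOX-7g. The threshold was passed by 4 of the 16 (25%) in each, where 0.346% and 0.489% of all probesets passed. The 9 in Dor-7g were Rnu3a, Snord13, Snord118, n-R5s136, Rnu12, Rny1, Rny3 and both 7SK probesets. Of the 74 inside a named gene, 7 (9.46%) were higher and 11 (14.9%) lower in Dor-7g, and 12 (16.2%) higher and 11 (14.9%) lower in DOX-7g, so every member counted as lower was inside a named gene. The median change was 1.53 in Dor-7g and 2.62 in DOX-7g for the 16, and -0.10 and 0.04 for the 74. The difference between position groups was not tested.

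On single arrays, the median of the 16 stood 1.24 and 0.69 above the D4-act-7g mean in Dor-7g and 1.78 and 3.03 above it in DOX-7g, and that of the 74 between -0.06 and 0.03. Leaving out Dor-7g replicate 1 leaves 1 array in Dor-7g, so a lack of overlap is met more easily. The looser count then moved over all probesets as well as in the 16 and the 74. The 4 members inside a predicted gene were both Scarna17 probesets, Snord104 and Rnu5g, and 3 of them were higher in both comparisons. Not all RNAs outside other genes were at least 1 unit higher: Rprl1, Rprl2, Rnu11, Snord89, Scarna2 and Terc differed by -0.33 to 0.67 in both comparisons. Of these, Rnu11 (0.67), Scarna2 (0.56) and Rprl2 (0.41) were higher in Dor-7g without overlap but did not pass.

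**Figure D3:**
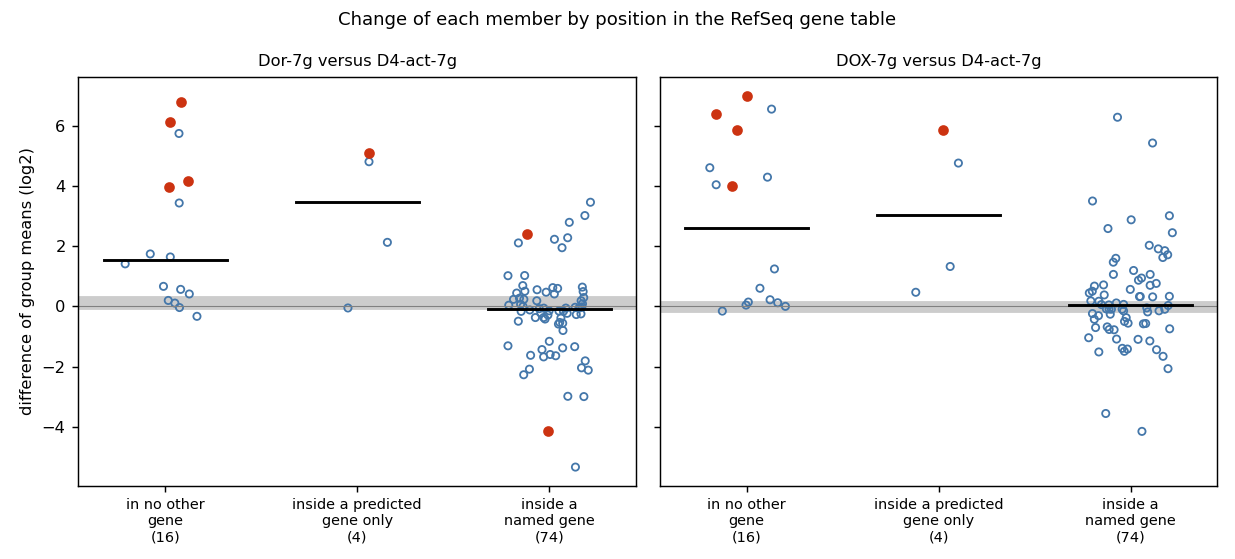
Difference of group means (log2) for members in no other gene (16), inside only a predicted gene (4) and inside a named gene (74), Dor-7g versus D4-act-7g on the left and DOX-7g versus D4-act-7g on the right. Points are probesets, filled where limma's adjusted p is below 0.05, bars are medians and the grey band covers the range between the quartiles of all probesets. No member outside other genes lies below -0.33, while those inside named genes spread to -5.33 and -4.15.

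Host genes were measured for 64 of the members, 48 hosts in all, and their differences were smaller than those of the members inside them. Each host was read from the brightest probeset with its symbol. Whether that probeset lies at the locus that holds the member was not tested. The median size of change, sign ignored, was 0.18 for hosts and 0.50 for their members in Dor-7g, 0.13 and 0.70 in DOX-7g, and 0.21 and 0.65 between the dormant groups. In Dor-7g 13 of the 64 members and 1 of the 48 hosts differed by more than 2 units, and in DOX-7g 10 members and 0 hosts. Of the hosts, 1 passed in Dor-7g, Cct6a, a chaperonin subunit, which fell by 1.97 (SE 0.18, adjusted p = 0.0294, limma), while its member Snora15 differed by -0.06. No host passed in DOX-7g versus D4-act-7g or between the dormant groups. Of all probesets 0.346% passed in Dor-7g, 0.489% in DOX-7g and 0.59% between the dormant groups.

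Member and host had opposite signs in 31 of 64 pairs in Dor-7g, 34 in DOX-7g and 28 between the dormant groups. Across the 64 members, which share hosts and arrays, Pearson's r between member and host change was 0.02, 0.10 and 0.13, given as a description. On its brightest probeset Rpl23a, host of Snord42b, lay between 12.86 and 13.08 on all 6 arrays and differed by 0.10 in Dor-7g. Rpl4, host of Snord16a, lay between 12.96 and 13.29. The highest values of the arrays were 14.08 to 14.18, so the differences of hosts this bright may be compressed. Snhg3, the noncoding host of Snora73b, differed by 0.26 between the dormant groups (adjusted p = 0.704), and Tpt1, host of Snora31, differed by 0.32 in Dor-7g (adjusted p = 0.713).

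Members inside 1 host also parted from each other. Whether a probeset inside a host reads the mature small RNA, its precursor or the host's intron is not stated. The noncoding gene 2410006H16Rik, at 12.89 to 13.27 on all arrays, holds Snord49a, Snord49b and Snord65. In Dor-7g these differed from D4-act-7g by 1.02, -5.33 and 0.50, and in DOX-7g by -1.15, -1.04 and -1.39, none past the threshold. Snord65 read 11.81 and 11.41 for D4-act-7g, 11.93 and 12.29 for Dor-7g, and 10.87 and 9.56 for DOX-7g. Its Dor-7g arrays were the highest of the 6, where those of Snord49b were the lowest.

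Snhg12, the host of 4 members and the most of any gene here, differed by -0.04 in Dor-7g and by -0.36 in DOX-7g. Its members Snora16a, Snora44, Snora61 and Snord99 differed by -1.60, 1.02, 0.47 and -1.64 in Dor-7g and by 0.33, 0.33, -0.56 and -1.51 in DOX-7g. In Dor-7g, Snora44 read 11.21 on replicate 1 and 6.20 on replicate 2, and Snord99 read 4.87 and 10.65. These members inside 1 host thus differed in opposite directions between arrays of 1 group.

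**Figure D4:**
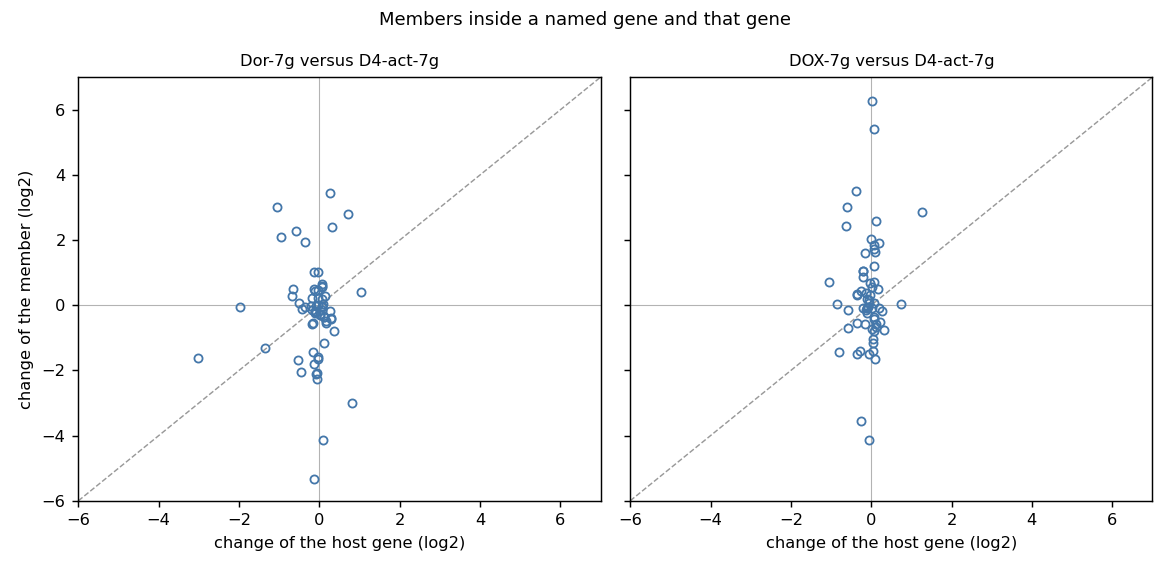
Change of each of 64 members (vertical axis, log2) against that of the brightest probeset of its host gene (horizontal axis, log2). Dor-7g versus D4-act-7g is on the left and DOX-7g versus D4-act-7g on the right. The dashed line marks equal change. Points form a vertical band around 0 on the host axis, with member changes from -5.33 to 3.46 on the left and from -4.15 to 6.28 on the right.

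Both arrays of a dormant group often differed strongly for these RNAs. In D4-act-7g, 2 of the 94 members (2.13%) differed by more than 2 units between its arrays, but 22 (23.4%) did in Dor-7g and 19 (20.2%) in DOX-7g. Over all probesets these shares were 0.791%, 3.02% and 1.19%, and 0, 1 and 0 of the 48 host genes did. Of the 22 in Dor-7g, 16 (72.7%) were lower on replicate 1, where 77.9% of such probesets over the whole table were, and of the 19 in DOX-7g, 11 (57.9%) were lower on replicate 2, where 67.8% were. Among them, 10 were in both lists, 45.5% of the Dor-7g list and 52.6% of the DOX-7g list.

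Snord47, inside the host gene Gas5, read 9.47 and 9.78 on the D4-act-7g arrays, 2.89 and 10.40 on those of Dor-7g, and 8.96 and 8.13 on those of DOX-7g. Snord72, inside Rpl37, read 8.18 and 8.18, 2.40 and 9.88, and 7.13 and 7.70. In both, 1 Dor-7g array stood near the lowest values of the table and the other above all others. Snora69, inside Rpl39, read 8.67 and 9.57 for D4-act-7g, 3.75 and 8.51 for Dor-7g, and 8.24 and 2.89 for DOX-7g, low on 1 array of each dormant group. Their differences between groups did not pass in any comparison, and those of Snord47 and Snord72 turned when Dor-7g replicate 1 was left out. RNA was released from the embryos by heating in water, and its part in these gaps was not tested.

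**Figure D5:**
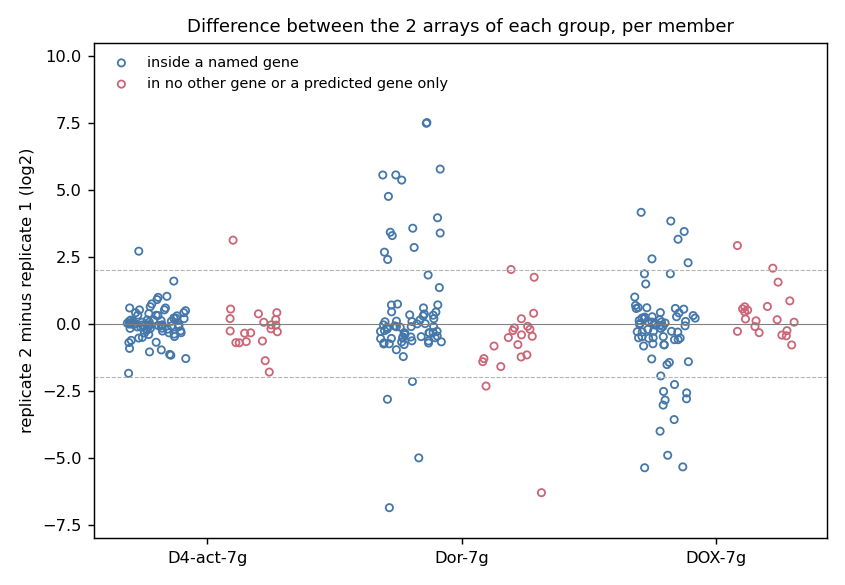
Replicate 2 minus replicate 1 (log2) for each of the 94 members within D4-act-7g, Dor-7g and DOX-7g, members inside a named gene and the others drawn apart, with dashed lines at 2 units either way. Beyond those lines lie 2 members of D4-act-7g, 22 of Dor-7g and 19 of DOX-7g.

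Low values limit a share of these results. Of the 94 members, 38 reached the array's median on all 6 arrays, 22 stayed below it on all 6, and 37 were below it on both D4-act-7g arrays. No detection calls were used here, and a fold against a group near the lowest values, as for U3 and Snora20, may be compressed.

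Genes for the proteins that bind, build or transcribe these RNAs, and 16 noncoding host genes, made up 14 lists with 168 measured genes. None passed in any comparison by limma, where 0.346% of all probesets passed in Dor-7g, 0.489% in DOX-7g and 0.59% in DOX-7g versus Dor-7g. At an unadjusted p under 0.05, 6 (3.57%) were higher and 18 (10.7%) lower in Dor-7g, where 5.56% and 4.84% of all probesets were. In DOX-7g 3 (1.79%) were higher and 9 (5.36%) lower, where 3.56% and 3.8% were. In DOX-7g versus Dor-7g these were 10 (5.95%) and 6 (3.57%), where 3.94% and 5.52% were. Of these, the host genes gave 3 and 0 in Dor-7g, 1 and 2 in DOX-7g, and 0 and 3 between the dormant groups. Of the measured genes of RNA polymerase III and its factors, 28 in number, 1 was higher and 2 lower without adjustment in Dor-7g and 0 in DOX-7g, with medians of -0.03 and -0.14. Polr3g, a polymerase III subunit of early embryos and stem cells, differed by -1.95 in Dor-7g (SE 0.38, adjusted p = 0.18). The 7 measured genes of the 7SK complex had medians of 0.10 and -0.15, beside the 7SK changes of 3.95 to 6.99, and Hexim1, which blocks P-TEFb when 7SK binds it, differed by 0.62 in DOX-7g (SE 0.21, adjusted p = 0.563).

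The 9 measured box C/D proteins and assembly factors had medians of -0.58 in Dor-7g and -0.24 in DOX-7g. Snu13, the core protein that binds the box C/D fold, differed by -0.73 in Dor-7g (SE 0.17, adjusted p = 0.247, limma). The 6 box H/ACA proteins and assembly factors had medians of -0.05 and -0.17, and Dkc1, the pseudouridine synthase, differed by 1.14 in Dor-7g (SE 0.37, adjusted p = 0.389). The 11 proteins of RNase P and RNase MRP had medians of -0.41 and -0.18, where Pop7 differed by -1.25 in Dor-7g (SE 0.35, adjusted p = 0.323). Exosc3, a subunit of the exosome that trims small RNAs, differed by -1.10 in Dor-7g (SE 0.21, adjusted p = 0.17), and among the noncoding host genes Snhg4, host of Snora74a, differed by 1.25 in DOX-7g (SE 0.17, adjusted p = 0.0796).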

How the data were processed

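The authors deposited 1 log2 expression value per probeset and array for 6 arrays, and the tools named for it, per the submitters' processing notes, are RMA and Partek 6.6, with no settings. RMA corrects background, normalizes and summarizes probes. A genome build used by the authors is not stated.

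Groups and replicate numbers were read from titles. The platform's annotation named the probesets: 23521 had 1 symbol, 1814 several and 16010 are not named here; symbols were updated through RefSeq (GRCm38.p6), where all 94 members matched. The rule left out 62 probesets that share a symbol of these families with another symbol. Snora19 has 2 probesets with identical values.

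In R 4.3.3, limma 3.58.1 fitted the group means of all 41345 probesets without a block and without a filter on low values, so every member was tested (a filter of 2 of 6 arrays at or above the array's median would have passed 66 of 94). The fit had 3 residual and 2.38 prior degrees of freedom, and was tested on simulated data. With 2 arrays a group, their number limits the precision. Replicate numbers did not pair the arrays: correlations of their deviations were -0.01, -0.01 and -0.10.

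A host was the shortest named gene that contains the member, on either strand, where the same strand had been planned, since the gene table used gives no strand; position groups were set after the values were seen. A host or partner gene was read from its brightest probeset.

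Named were members past the threshold (up to 10 each way per comparison), the smallest p and the brightest 3 per class, the 7SK, RNase P, Y, U and telomerase RNAs, hosts of 4 members, and the 2 partner genes of smallest p per list, of which some are given. Snord49b and its neighbours, Snora20, Snora30, Snord47, Snord72, Snora69 and the U1 and U3 copies were named after their values were seen where the rule did not take them. Members and gene lists were chosen with earlier results of these data known. A planned motif search was not run, and no sequences are printed. Alternatives covered scaling, filters, variance model, array weights, arrays in the fit, a replicate block, thresholds and leaving out each array.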

Additional observations from a re-analysis of the deposited data

How the results depend on the processing

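The count of members past the threshold depended on which arrays and probesets entered the fit, and so did that of all probesets. Shares in brackets are those of all probesets fitted. The 7 of Dor-7g versus D4-act-7g became 3 with array weights, 3 in the fit of the 4 arrays compared and 2 with a replicate block, and 0 to 16 when 1 array was left out. Of all probesets fitted, 0.346% passed in Dor-7g versus D4-act-7g in the first fit and 0.131% with array weights. In the fit of the 4 arrays compared 0.0726% passed, and with the replicate block 0.169%. In DOX-7g versus D4-act-7g the 5 (0.489%) became 9 with the filter of 2 of 6 arrays (0.977%) and 9 with 1-symbol probesets alone (0.595%). They became 10 with array weights (1.13%) and 10 in the fit of the 4 arrays compared (0.648%). At an adjusted p below 0.1 they were 9 (0.859%), and the replicate block gave 5. In DOX-7g versus Dor-7g the 3 became 6 with the filter, 5 with the filter and the brightest probeset, 6 with 1-symbol probesets alone, 1 with array weights and 6 at an adjusted p below 0.1, and 2 to 11 when 1 array was left out; the replicate block gave 2. The share of all probesets passing in DOX-7g versus Dor-7g was 0.59% in the first fit. It was 1.19% with the filter, 1.16% with the filter and the brightest probeset, and 0.714% with 1-symbol probesets alone. With array weights it was 0.336%, and at an adjusted p below 0.1 it was 0.861%. Leaving out 1 array, which leaves 1 array in a group, also moved the count of each comparison. The largest counts in both comparisons with Dor-7g came where more of all probesets also passed than with all 6 arrays. The other alternatives stayed within 1.5 times the first counts of 7, 5 and 3. Counting probesets of identical values once (chosen after seeing the data) gave 6, 5 and 3. The cause of each shift was not tested, beyond the fewer arrays or probesets that an alternative itself brings.

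Members inside a named gene at least 1 unit higher in Dor-7g numbered 6 to 13 when 1 array was left out (13 without Dor-7g replicate 1) and 12 to 17 in DOX-7g; those in no other gene numbered 7 to 9 and 8 to 9. Class medians kept their side of 0 in the comparisons with D4-act-7g except for box C/D, which lay between -0.19 and 0.10 in Dor-7g and between -0.14 and 0.12 in DOX-7g. With the filter of 2 of 6 arrays, Cajal body medians became 4.80 (Dor-7g), 4.75 (DOX-7g) and 0.76 between the dormant groups. Each is the value of a Scarna17 probeset, which passes that filter only through the dormant arrays. Small nuclear medians became 1.04 and 0.32 in Dor-7g and DOX-7g. Scaling moved the small nuclear medians to 0.84 in Dor-7g (second quantile normalization). Between the dormant groups it moved them to -0.86 and -0.49 (second quantile normalization and centring).

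Directions turned for 12 differences, none of them past the threshold with all arrays. Without Dor-7g replicate 1 and replicate 2 in turn, the differences in Dor-7g versus D4-act-7g were 0.78 and -6.74 for Snord47, 1.71 and -5.78 for Snord72, 1.62 and -3.94 for Snora78, and -1.48 and 3.53 for Snora44. Those in DOX-7g versus Dor-7g were -1.86 and 5.66, -2.47 and 5.02, -0.91 and 4.65, and 1.81 and -3.19 for the same RNAs, and 5.40 and -1.47 for Snora30. Without DOX-7g replicate 1 and replicate 2 in turn, Snord15a gave 3.70 and -0.46 against D4-act-7g and 3.95 and -0.21 against Dor-7g, and Snord91a gave -0.011 and 2.57 against Dor-7g. With 2 arrays a group and many members near the lowest values, differences of 1 to 2 units mostly did not pass.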
